A study of Mus musculus with 4 samples.

Results

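The respiratory chain genes of bone-marrow-derived macrophages were taken here as every gene whose symbol begins with Nduf, Uqcr, Cox4 to Cox8 or Atp5, together with Sdha to Sdhd, Cyc1, Cycs and the protein-coding genes of mitochondrial DNA. Symbols with the pseudogene suffix -ps were left out. The choice used names only and no measured value, but it was made with earlier results of these data known. It gave 113 of 55536 annotated genes, of which 96 were nuclear protein-coding genes, 13 were encoded in mitochondrial DNA and 4 were processed pseudogenes (Cox6c2, Ndufa11b, Ndufb4c and Ndufs6b). Atp5o was present under 2 gene identifiers, and the second was at 0 in all libraries.

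The respiratory chain is built in the inner mitochondrial membrane from subunits of both genomes. Complex I (NADH dehydrogenase) and complex II (succinate dehydrogenase) pass electrons to ubiquinone, complex III (the cytochrome bc1 complex) passes them on to cytochrome c, and complex IV (cytochrome c oxidase) to oxygen. Complex V (ATP synthase) uses the proton gradient that complexes I, III and IV build. Complex II is encoded wholly in the nucleus, while the other complexes have core subunits made from mitochondrial transcripts. In macrophages, lipid A and other Toll-like receptor agonists are known to lower oxidative phosphorylation and to raise glycolysis.

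All 4 libraries belonged to 1 group, so no value here is an effect of a treatment. The cells came from C57BL/6J mice and received lipid A at 100 ng/ml during a pretreatment of 12 h. They were then kept for 12 h after washout and collected at 0 min of a second stimulation, and other label fields call the agent lipoprotein A. PolyA-plus RNA was sequenced from 4 biosamples that carried 1 donor identifier, and p-values therefore measure only the spread between these libraries. Sex and age were not collected. Replicates 3 and 4 were each made from 4 read files and replicates 1 and 2 from 6, per the deposited notes. The one comparison made was between these pairs of libraries, not between conditions. What the number of read files reflects is not known. Gene counts totalled 48875472 and 57126810 in replicates 3 and 4, against 25594340 and 27384162 in replicates 1 and 2. Of 8 macrophage markers, all had a mean of at least 100 TPM (the abundance of a transcript relative to all others in its library, corrected for length), and their sum was 14850 and 17540 TPM in replicates 3 and 4, against 16550 and 17150 TPM in replicates 1 and 2. Of 21 markers of neutrophils, B cells, T and NK cells, fibroblasts and erythroid cells, 20 had a mean under 1 TPM; the exception was Cd79b at 3.16 TPM. In bulk RNA, fewer cells of a type and less RNA per cell cannot be told apart.

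Several mitochondrially encoded genes had a near-identical nuclear entry in the annotation, and their sequences are shown first because the values of these genes depend on it. A block on the minus strand of chromosome 1 (mm10, chr1:24611535-24616197) holds unprocessed pseudogenes of 7 of the 13 genes: Gm29216 (mt-Co1), Gm28661 (mt-Co2), Gm10925 (mt-Atp6), Gm28437 (mt-Co3), Gm28438 (mt-Nd3), Gm10222 (mt-Nd4l) and Gm28439 (mt-Nd4). Over the 783 bases of Gm28437 compared with mt-Co3, the 678 of Gm10925, the 681 of Gm28661, the 294 of Gm10222 and the 876 of Gm28439, the letters did not differ at all. Gm28438 differed from mt-Nd3 at 1 of 345 bases, T3C, counted from 1 at the 5′ end of the gene. The first 60 bases of this pair are given from GENCODE M21 transcripts, with the differing base in capitals.
mt-Nd3 (chrM:9459-9518, plus strand): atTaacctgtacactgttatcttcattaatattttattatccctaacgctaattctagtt
Gm28438 (chr1:24613060-24613119, minus strand): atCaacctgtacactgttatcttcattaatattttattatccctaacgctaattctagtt
Most of the copies end 1 to 3 bases short of the gene. The last bases of mt-Co3 and of mt-Atp6 show this, with the bases that the copy lacks in capitals.
mt-Co3 (chrM:9331-9390, plus strand): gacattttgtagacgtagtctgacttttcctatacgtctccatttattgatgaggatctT
Gm28437 (chr1:24613189-24613247, minus strand): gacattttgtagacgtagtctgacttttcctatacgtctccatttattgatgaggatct
mt-Atp6 (chrM:8548-8607, plus strand): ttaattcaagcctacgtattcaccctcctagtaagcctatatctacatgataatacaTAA
Gm10925 (chr1:24613974-24614030, minus strand): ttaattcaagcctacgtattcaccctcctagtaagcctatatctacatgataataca
A read from these stretches within these annotated transcripts can be told apart from the copy only where it covers the last bases, or for mt-Nd3 the differing base. Gm28439 covers the first 876 of 1378 bases of mt-Nd4, and Gm29216 covers bases 1054 to 1545 of mt-Co1 with 6 differences, all between positions 1056 and 1066. The genes mt-Atp8 and mt-Atp6 also overlap each other by 43 bases, which are capitals in the end of mt-Atp8.
mt-Atp8 (chrM:7870-7969, plus strand): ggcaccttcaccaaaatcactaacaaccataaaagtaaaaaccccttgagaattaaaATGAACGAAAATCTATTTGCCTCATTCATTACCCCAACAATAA
The other 6 genes shared at most 16.8% of their 31-base words with any other annotated gene, and mt-Nd1 shared none.

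The 13 mitochondrially encoded genes were, as a class, the most abundant of the chain, and their summed level was higher in replicates 3 and 4. They held 7.98 and 8.95% of all TPM in replicates 3 and 4, against 1.72 and 2.53% in replicates 1 and 2. The 96 nuclear genes and the 4 processed pseudogenes together held 1.11 and 1.01% in replicates 3 and 4, against 1.28 and 1.42% in replicates 1 and 2. The mitochondrial sum was thus 7.21 and 8.88 times that second sum in replicates 3 and 4, against 1.35 and 1.79 times in replicates 1 and 2. The gene mt-Atp8 alone held 3.405 and 4.995% of all TPM in replicates 3 and 4, against 0.735 and 0.995% in replicates 1 and 2. Without it, log2 of that ratio was 2.05 and 1.97 in replicates 3 and 4, against -0.37 and 0.12 in replicates 1 and 2. With the chromosome 1 copies added and mt-Atp8 kept, the ratio was 11.57 and 13.28 in replicates 3 and 4. It was 2.41 and 3.0 in replicates 1 and 2.

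Complex I has the most mitochondrially encoded subunits, and those without a chromosome 1 copy were each higher in replicates 3 and 4. The gene mt-Nd1 (chrM:2751-3707), for the membrane subunit next to the quinone site, had 6024 and 3969 TPM in replicates 3 and 4, against 749 and 1048 TPM in replicates 1 and 2. Its log2 fold change was 2.49 (SE 0.30; edgeR quasi-likelihood, Benjamini-Hochberg adjusted p = 0.0298), and values in parentheses below are this fold change in the same order. The proton-pumping subunit gene mt-Nd2 had 2874 and 2640.2 TPM in replicates 3 and 4, against 399 and 594 TPM in replicates 1 and 2 (2.50, SE 0.23, edgeR adjusted p = 0.0187). For both genes the pairs of libraries did not overlap, and the gap between the pairs was wider than the gap within either pair. The gene mt-Nd5, for another pumping subunit, had 2593 and 2665 TPM in replicates 3 and 4, against 577 and 961 TPM in replicates 1 and 2 (1.81, SE 0.26). The gene mt-Nd4, for a further pumping subunit, had 4310.3 and 2579 TPM in replicates 3 and 4, against 579.8 and 1058 TPM in replicates 1 and 2 (2.11, SE 0.37), and its copy took at most 1.0% of the pair's counts in the RSEM layout; in the kallisto layout it took 1.4 and 15.1% in replicates 3 and 4, against 0.0% in both replicates 1 and 2. All of these differed in the same direction without overlap. The gene mt-Nd6, the one member transcribed from the light strand, had 4043 and 3539 TPM in replicates 3 and 4, against 1060.2 and 1709 TPM in replicates 1 and 2 (1.46, SE 0.23). The sources used here do not say whether counting used strand, so reads from transcripts antisense to mt-Nd6 cannot be told apart from its own.

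In complex III, mt-Cytb (chrM:14145-15288) encodes cytochrome b, the one subunit of that complex made from mitochondrial DNA. It had 5022 and 3128 TPM in replicates 3 and 4, against 643 and 1101 TPM in replicates 1 and 2 (2.26, SE 0.35, edgeR adjusted p = 0.0357). In complex IV, mt-Co1 (chrM:5328-6872) encodes the catalytic subunit that holds the oxygen-binding site, and with 17442 and 17865 TPM in replicates 3 and 4, against 5016 and 7494 TPM in replicates 1 and 2, it was the second most abundant member. It rose by 1.52 on the log2 scale (SE 0.29, edgeR adjusted p = 0.0449), but was not called in the kallisto-layout counts (1.60, edgeR adjusted p = 0.0567) or with offsets for GC content and length fitted in each library (1.37, edgeR adjusted p = 0.0634). In complex V, mt-Atp8, for a small membrane subunit, had the highest TPM of all members, 34048 and 49947 TPM in replicates 3 and 4, against 7348 and 9952 TPM in replicates 1 and 2. That level rests on a deposited effective length of 14.9 and 11.5 bases in replicates 3 and 4, against 19.7 and 18.1 in replicates 1 and 2, for a gene of 204 bases. By counts it held 17462 and 23268 in replicates 3 and 4, against 2468 and 3337 in replicates 1 and 2, far fewer than mt-Co1 with 774946 and 925040, against 110286 and 178859.

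The 5 genes almost wholly contained in a copy behaved differently when read alone. The gene mt-Co3, for a core subunit of complex IV, had 37.9 and 32.7 TPM in replicates 3 and 4, against 156 and 197 TPM in replicates 1 and 2, and it was the single mitochondrial gene called lower (-2.31, SE 0.17, edgeR adjusted p = 0.0146). Its copy Gm28437 held 99.5 and 99.6% of the expected counts of the pair in replicates 3 and 4, against 94.3 and 93.7% in replicates 1 and 2. With the counts of gene and copy summed, mt-Co3 held 138038 and 158197 in replicates 3 and 4, against 24556 and 30425 in replicates 1 and 2, and its sign turned to 1.37 (SE 0.22, edgeR adjusted p = 0.0359). The gene mt-Atp6, for the proton channel subunit of ATP synthase, had 157 and 92.1 TPM in replicates 3 and 4, beside 73.6 and 226 TPM in replicates 1 and 2. These values overlapped between the pairs, and the fold change was -0.20 (SE 0.47). With its copy it had 12620 and 14740 TPM in replicates 3 and 4, against 2504 and 3418 TPM in replicates 1 and 2, and a fold change of 2.21 (SE 0.24, edgeR adjusted p = 0.0271).

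The gene mt-Co2, for the subunit that takes up electrons from cytochrome c, had 384 and 322 TPM in replicates 3 and 4, beside 256 and 421 TPM in replicates 1 and 2, again overlapping. Summed with Gm28661 it had 20190 and 15550 TPM in replicates 3 and 4, against 3817 and 5495 TPM in replicates 1 and 2 (1.95, SE 0.28, edgeR adjusted p = 0.0343). The gene mt-Nd3, for a small core subunit of the membrane arm of complex I, had 96.1 and 121 TPM in replicates 3 and 4, against 67.9 and 44.8 TPM in replicates 1 and 2, and the sum with Gm28438 rose by 1.48 (SE 0.18). With the offsets as well, that sum had a fold change of 0.37 (SE 0.24, edgeR adjusted p = 0.357). The gene mt-Nd4l, for another small core subunit of that arm, went the other way. Alone it had 2771 and 2566 TPM in replicates 3 and 4, against 287 and 519.7 TPM in replicates 1 and 2, the largest fold change of any member at 2.60 (SE 0.24, edgeR adjusted p = 0.0187). The share of the pair's counts given to Gm10222 was 19.4 and 4.8% in replicates 3 and 4, against 70.7 and 70.0% in replicates 1 and 2. For the sum of both, the fold change was 1.06 (SE 0.26, edgeR adjusted p = 0.0685). The whole of mt-Nd4l is given here, with the 3 bases that distinguish it from its copy in capitals.
mt-Nd4l (chrM:9877-10173, plus strand): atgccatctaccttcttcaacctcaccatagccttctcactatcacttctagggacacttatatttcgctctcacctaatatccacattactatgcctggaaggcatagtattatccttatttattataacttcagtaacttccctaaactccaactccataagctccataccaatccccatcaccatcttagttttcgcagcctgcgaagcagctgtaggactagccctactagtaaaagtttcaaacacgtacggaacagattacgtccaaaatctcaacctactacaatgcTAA
In the second deposited quantification, which has the column layout of kallisto, Gm10222 had 0 counts in all libraries and mt-Nd4l alone rose by 1.5. That quantification also divided mt-Atp6 differently, giving Gm10925 0.0% of the pair's counts in replicates 3 and 4, against 38.8 and 17.8% in replicates 1 and 2.

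By edgeR, 9 of the 13 mitochondrial genes were higher in replicates 3 and 4 and 1 was lower, where 2.08% of 11991 tested genes were called higher and 3.72% lower. In the kallisto-layout counts 10 were higher and 0 lower (edgeR, 11 and 0 at an unadjusted p under 0.05; background 1.62% higher and 4.97% in either direction). With gene and copy summed, 12 of 13 were higher and 0 were lower, against a background of 2.09% higher and 3.7% lower, 5.79% in all; at an unadjusted p under 0.05 the numbers were 13 and 0. Copies on chromosome 2 that shared 45.2% of the 31-base words of mt-Co1 (Gm13340) and 47.1% of those of mt-Co2 (Gm13341) held at most 34 expected counts in any library. The median log2 fold change was 1.75 over the 13 genes, against -0.01 over all tested genes. The calls changed with the libraries used: 5 genes were higher without replicate 1, where 42 of 12638 tested genes were higher, and 9 without replicate 2, where 179 of 12343 were. Without replicate 3 or without replicate 4, edgeR called 0 genes of the whole transcriptome in either direction (895 higher and 1060 lower at an unadjusted p under 0.05 without replicate 3, and 929 and 1037 without replicate 4), while 9 mitochondrial genes were higher and 1 was lower at an unadjusted p under 0.05 each time. Library depth and the number of read files differ along the same split and cannot be told apart from it.

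**Figure D1:**
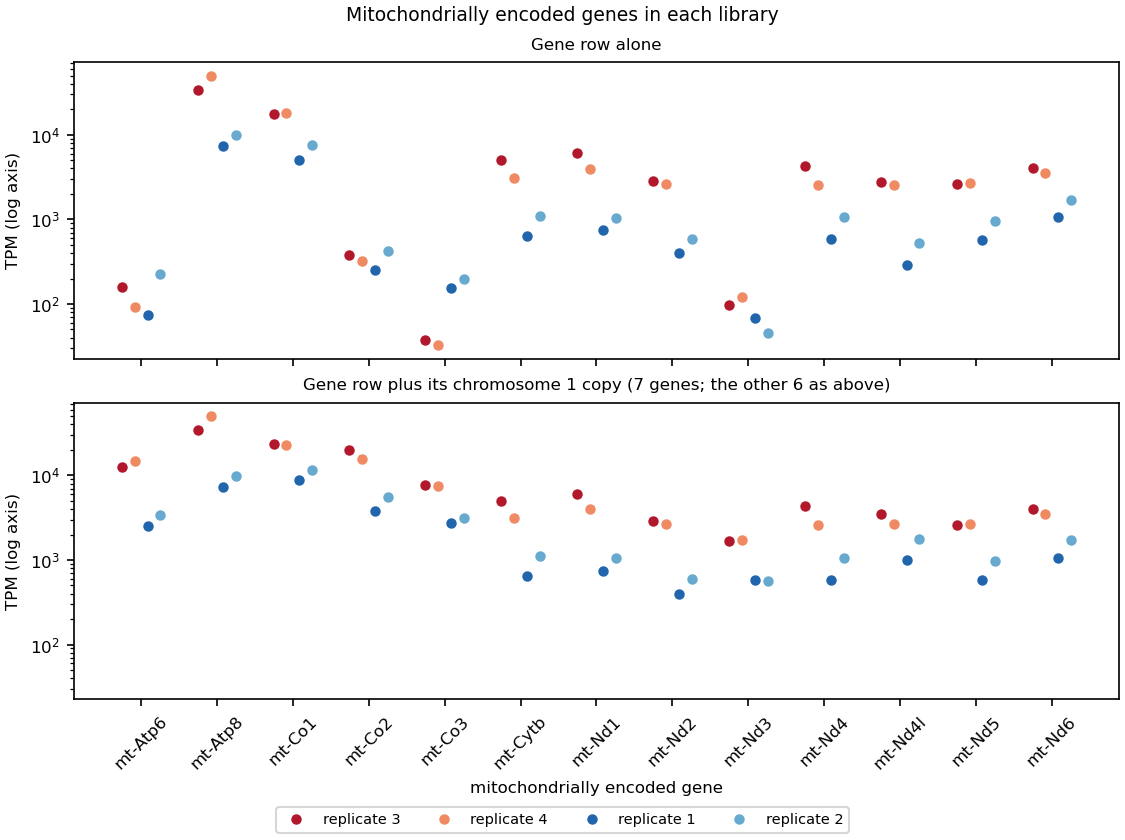
TPM (log axis) of the 13 mitochondrially encoded genes in replicates 3, 4, 1 and 2, for the gene entry alone (upper panel) and with its chromosome 1 copy added (lower panel). Alone, mt-Co3 lies lower in replicates 3 and 4 and mt-Atp6 and mt-Co2 overlap; with the copies added, both red points lie above both blue points for all 13 genes.

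Mean levels of nuclear subunits ran from 16.4 to 205.4 TPM in complex I and from 43.8 to 366.8 TPM in complex III. Of the 96 nuclear protein-coding genes, 89 had a mean of at least 1 TPM, 82 at least 10 TPM and 42 at least 100 TPM. Within each library the median over members was taken, and its mean over the 4 libraries was 185 ± 33.6 TPM for complex V, 130 ± 44.7 for complex IV, 119 ± 12.0 for complex II, 112 ± 28.8 for complex III and 72.8 ± 11.1 for complex I (SD, n = 4). Neighbours in this order differed by less than their SDs for complexes II to IV. Every gene of a class entered its median, genes at 0 TPM included. In complex IV only 14 of 20 genes reached 1 TPM on average, against 17 of 18 in complex V. In complexes I, II and III every gene did. The silent forms lower the median of complex IV, so its place in this order depends on the choice of genes by name. The assembly factors of complex I, which help to build it and are not part of it, lay lower at 9.62 ± 0.966 TPM.

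**Figure D2:**
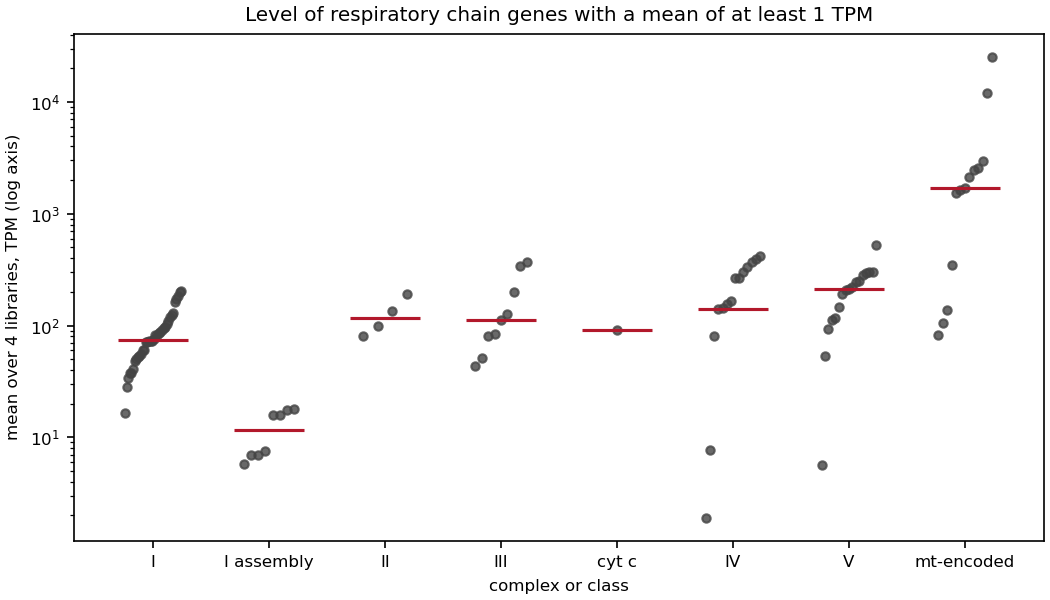
Mean TPM over 4 libraries (log axis) of each gene with a mean of at least 1 TPM, by complex or class; the red bar is the median over all genes of the class. Most nuclear subunits lie above 10 TPM, and the mitochondrial class has a median of 1700 TPM with mt-Atp8 at 25324 TPM on top.

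Complex I had 36 nuclear subunit genes, led by accessory subunits. Ndufc2, an accessory subunit of the membrane arm, varied least in TPM among members with a mean of at least 10 TPM. It had 200.4 and 215 TPM in replicates 3 and 4, beside 200.1 and 207 TPM in replicates 1 and 2 (CV 3.3%). Its deposited effective length was 356 and 329 bases in replicates 3 and 4, against 431 and 423 in replicates 1 and 2. In counts its log2 fold change was -0.28 (SE 0.15). Ndufa1, encoded on the X chromosome, had 200.2 ± 40.3 TPM and Ndufb8 185 ± 23.4 TPM (SD, n = 4). The 7 nuclear genes of the catalytic core ranged from 28.0 TPM for Ndufv1, which binds FMN and NADH, to 87.7 TPM for Ndufs3. In complex II the 4 genes ran from 80.3 TPM for Sdhc, a membrane anchor, to 189.7 TPM for Sdhb, the iron-sulfur subunit. Sdha, the flavoprotein that oxidises succinate, had 136 ± 29.8 TPM. In complex III, Uqcrb had 596 and 389.8 TPM in replicates 3 and 4, against 216 and 265 TPM in replicates 1 and 2, and was the most abundant, followed by Uqcrh at 342 ± 58.0 TPM. Cyc1, which encodes cytochrome c1, was the least abundant at 43.8 ± 22.8 TPM. Complex IV was led by Cox6b1, Cox5a and Cox4i1, with means of 421, 392 and 372 TPM. Complex V was led by Atp5b, the catalytic beta subunit, at 525 ± 76.8 TPM, while Atp5a1, the alpha subunit that alternates with it in the F1 head, had 243 ± 17.8 TPM.

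Tissue-specific forms of complex IV subunits were at 0 or low. Cox7b2, Cox8b, Cox8c and Ndufa4l2 had 0 counts in every library, which allows up to 0.0614 and 0.0525 CPM in replicates 3 and 4, beside 0.117 and 0.110 CPM in replicates 1 and 2 (3 counts of the library total, scaled to library size, counting error only). Cox4i2, the form of subunit 4 known from lung and from hypoxic cells, had 1 count in all, and Cox6b2, known from testis, had 3. Cox8b belongs to heart and muscle, and Ndufa4l2 is known as a target of the hypoxia-inducible factor. The muscle forms Cox6a2 and Cox7a1 were low but present, at 7.71 ± 3.21 and 1.91 ± 0.952 TPM. Each ubiquitous form exceeded its tissue-specific counterpart in 4 of 4 libraries, by 5.01 ± 0.37 on the log2(TPM + 1) scale for Cox6a1 over Cox6a2 and by 8.51 ± 0.28 for Cox4i1 over Cox4i2. The exact two-sided sign-flip test over 4 libraries cannot give a p below 0.13, and over the 13 pairs compared the adjusted p was 0.163 for each of these. Of 11 members that did not pass the filter on low counts, 7 were subunit genes of complexes IV and V, besides Cox7a1 and 3 of the pseudogenes.

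The 3 genes of the ATP synthase c subunit encode the same mature protein of the membrane ring behind different import sequences. Atp5g3 had 111 and 73.5 TPM in replicates 3 and 4, against 281 and 306 TPM in replicates 1 and 2. Atp5g1 had 30.4 and 26.0 TPM in replicates 3 and 4, against 74.7 and 82.4 TPM in replicates 1 and 2. Atp5g3 exceeded Atp5g1 in all 4 libraries, by 1.77 ± 0.20 on the log2 scale. For Atp5g2 the order depended on the quantification. It had 111 ± 39.9 TPM in the first and a mean of 5.85 TPM in the second, which gave the reads to Gm10175, a transcribed processed pseudogene on chromosome 7 whose transcript shares 100% of its 31-base words with Atp5g2. Summed over both genes the counts were 1607 and 1760 in replicates 3 and 4, against 1318 and 1743 in replicates 1 and 2. These counts of the first quantification were not scaled to library size, and total gene counts were higher in replicates 3 and 4.

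**Figure D3:**
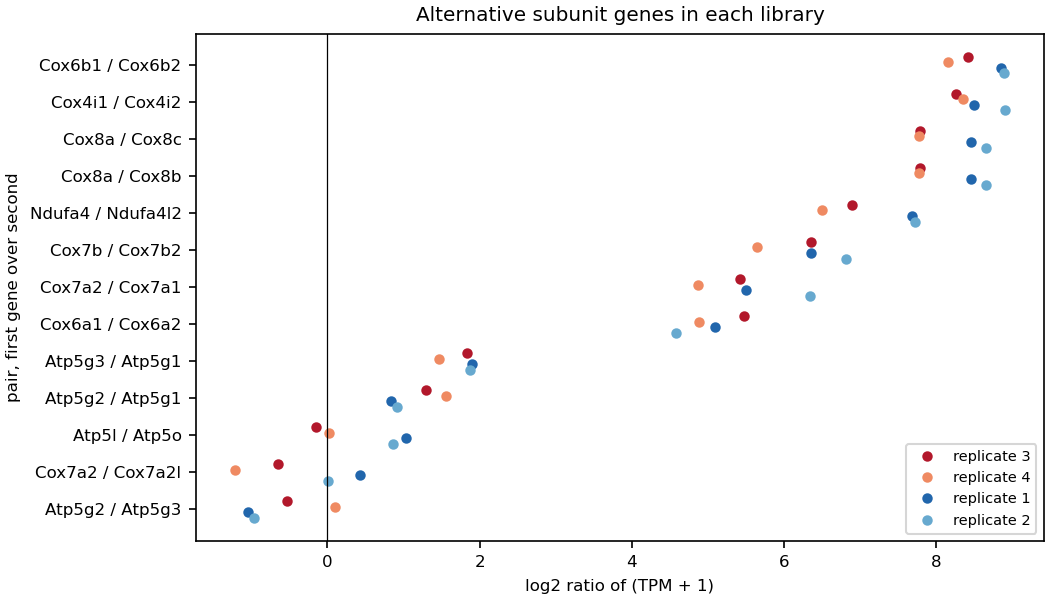
Log2 ratio of (TPM + 1) between alternative subunit genes within each library, first gene over second, with 1 point per library. The ubiquitous complex IV forms lie far to the right of 0 in all 4 libraries, while Cox7a2 over Cox7a2l and Atp5g2 over Atp5g3 cross 0.

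Cox7a2l is a relative of Cox7a2 that links complexes III and IV into supercomplexes, and C57BL/6 strains are known to carry a shortened form of it. It had 147 and 178 TPM in replicates 3 and 4, beside 144 and 201 TPM in replicates 1 and 2. Cox7a2 had 93.1 and 76.1 TPM in replicates 3 and 4, against 194 and 202 TPM in replicates 1 and 2, so that their log2 ratio was -0.65 and -1.22 in replicates 3 and 4, against 0.43 and 0.01 in replicates 1 and 2. The exact sign-flip test over the 4 libraries gave p = 0.5. It tests only whether the mean log2 ratio departs from equal TPM, not whether the pairs of libraries differ.

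Between the pairs of libraries, nuclear subunits were mostly lower in replicates 3 and 4. By edgeR, 25 of 88 tested nuclear protein-coding genes were lower in replicates 3 and 4 and 2 were higher, where 5.8% of all tested genes were called in either direction, 3.72% lower and 2.08% higher. The 25 comprised 9 subunits and 2 assembly factors of complex I, 4 genes of complex III, 4 of complex IV and 6 of complex V. In complex II the fold changes were 0.52 for Sdha, -0.32 for Sdhb, -0.61 for Sdhc and -0.57 for Sdhd, not called by edgeR; DESeq2 called Sdha higher and Sdhc and Sdhd lower. Sdhc had 77.6 and 91.7 TPM in replicates 3 and 4, beside 71.1 and 80.8 TPM in replicates 1 and 2, which overlap and whose means differ in the other direction from the count fold change. At an unadjusted p under 0.05, edgeR placed 39 nuclear genes lower and 10 higher, beside 1829 lower and 1586 higher of all 11991 tested genes. DESeq2 called 33 lower and 8 higher against a background of 8.88% lower and 6.68% higher, 15.6% in all. The median log2 fold change was -0.42 over the nuclear genes and -0.01 over all tested genes. TPM did not overlap between the pairs for 55 of the 96 genes in the lower direction, against 26.9% of all tested genes, and for 18 in the higher direction, against 29.6%. Only 88 of the 96 were tested. The 18 include the untested Cox6b2, at 0.25 and 0.11 TPM in replicates 3 and 4, against 0 in replicates 1 and 2. In the kallisto-layout counts edgeR called 24 nuclear genes lower and 2 higher, against a background of 3.35% lower and 1.62% higher. The 2 were Ndufa12 and Cycs, while Atp5h was not called and Atp5g2 was not among the 24.

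Atp5e (chr2:174461072-174464105), the epsilon subunit in the central stalk of ATP synthase, had the highest CV, 84.1%, among the 83 nuclear members with a mean of at least 10 TPM, the pseudogene Ndufb4c included. It had 61.6 and 55.3 TPM in replicates 3 and 4, against 349 and 386 TPM in replicates 1 and 2 (-2.54, SE 0.17, edgeR adjusted p = 0.0146). Ndufa2, an accessory subunit of the complex I peripheral arm, had 30.0 and 18.3 TPM in replicates 3 and 4, against 134 and 148 TPM in replicates 1 and 2 (-2.56, SE 0.29, edgeR adjusted p = 0.0277). Cox5a (chr9:57521274-57532426), a nuclear subunit of complex IV, had 185 and 154 TPM in replicates 3 and 4, against 617 and 611 TPM in replicates 1 and 2 (-1.85, SE 0.19, edgeR adjusted p = 0.0228). For each of these genes both replicates 3 and 4 lay far below both replicates 1 and 2, with the libraries of a pair close together. Ndufb6, Ndufb2 and Ndufc1, accessory subunits of the complex I membrane arm, fell by 1.79, 1.74 and 1.36 on the log2 scale, and the assembly factors Ndufaf8 and Ndufaf3 fell by 1.67 and 1.34. Ndufs7, the core subunit with the last iron-sulfur cluster before the quinone, fell by 1.26, and Cyc1 fell by 1.28. Atp5g3 fell by 1.66. The other 14 nuclear genes called lower were Atp5d, Atp5g1, Atp5g2, Atp5l, Cox7a2, Cox8a, Ndufa11, Ndufa13, Ndufa4, Ndufb9, Ndufs3, Uqcr10, Uqcrfs1 and Uqcrq, and they fell by 0.80 to 1.23.

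Both genes called higher were accessory or stalk subunits. Ndufa12 (chr10:94198720-94221443), an accessory subunit of complex I, had 215 and 235 TPM in replicates 3 and 4, against 105 and 99.4 TPM in replicates 1 and 2 (1.11, SE 0.18, edgeR adjusted p = 0.0363). Atp5h (chr11:115415689-115419962), subunit d of the ATP synthase peripheral stalk, had 378 and 375 TPM in replicates 3 and 4, against 212 and 247 TPM in replicates 1 and 2 (0.70, SE 0.14, edgeR adjusted p = 0.0484). The assembly factor Ndufaf2, a paralog of Ndufa12, had 26.1 and 21.9 TPM in replicates 3 and 4, against 11.8 and 11.7 TPM in replicates 1 and 2 (0.99, SE 0.26, edgeR adjusted p = 0.0743). Fold changes differed widely within a complex: within the F1 part of ATP synthase, Atp5b, Atp5a1 and Atp5c1 had fold changes of 0.09, 0.09 and 0.16, beside -2.54 for Atp5e and -1.10 for Atp5d. On the TPM scale Atp5b was lower, with 439 and 489 TPM in replicates 3 and 4, against 555 and 615 TPM in replicates 1 and 2. Without replicate 1, 3 nuclear genes (Atp5e, Cox5a and Ndufa2) were lower and 1 (Ndufa12) was higher, where 135 of 12638 tested genes were lower and 42 higher. Without replicate 2, 20 nuclear genes were lower and 0 higher (10 higher at an unadjusted p under 0.05), where 492 of 12343 were lower and 179 higher. Without replicate 3 or 4 edgeR called 0 genes in all, as given above; at an unadjusted p under 0.05, 42 nuclear genes were lower and 6 higher without replicate 3, and 29 and 7 without replicate 4.

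**Figure D4:**
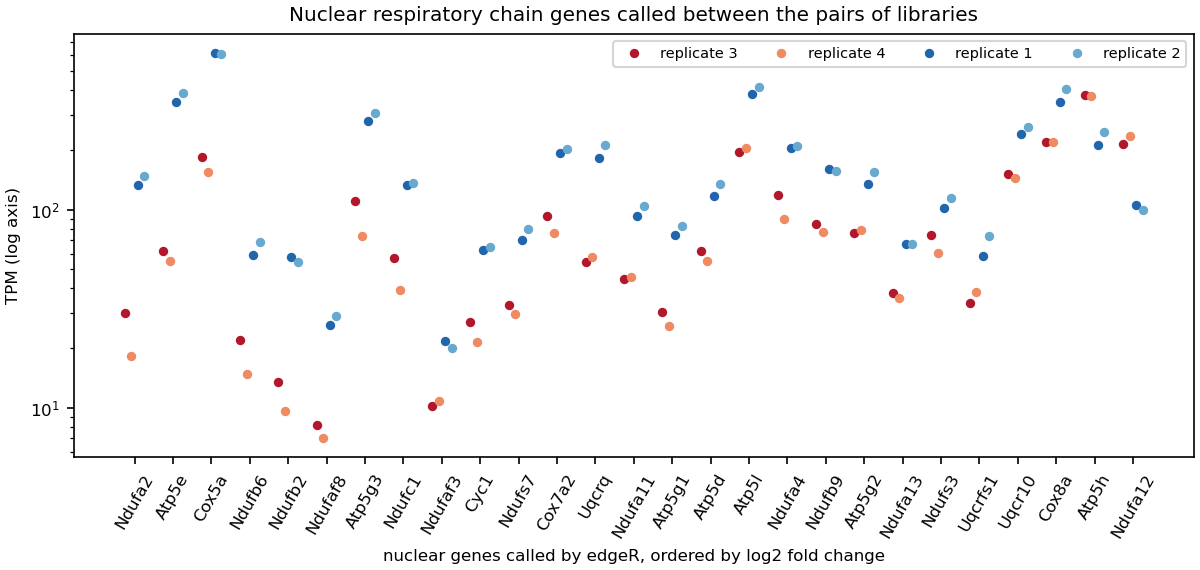
TPM (log axis) in replicates 3, 4, 1 and 2 of the 27 nuclear genes called between the pairs of libraries by edgeR, ordered by log2 fold change. For each of the 25 genes on the left both red points lie below both blue points, and for Atp5h and Ndufa12 both lie above.

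GC content and transcript length moved with these differences. The 25 nuclear genes called lower had a median GC content of 55.3% and a median length of 657 bases, against 49.9% and 846 bases for the 61 nuclear genes that were not called. The 13 mitochondrial genes had 37.1% GC. Over all 11991 tested genes the medians were 49.8% and 2409 bases, and the 446 genes called lower had 55.0% and 1226 bases. Across the 88 nuclear members, which share the same 4 libraries, Pearson's r of the fold change was -0.31 with GC content and 0.33 with log2 length. With offsets for GC content and length fitted in each library, 12 nuclear genes were lower and 6 were higher, where 2.25% of all genes were called in each direction and 4.5% in all. The median fold change of nuclear members was then -0.20, and r with GC content was -0.07. All 12 were among the 25: Atp5e (-2.07, edgeR adjusted p = 0.0206), Ndufa2 (-2.28), Cox5a (-1.64), Ndufb6 (-1.59), Atp5g3 (-1.47), Ndufb2, Ndufc1, Ndufaf3, Cyc1, Cox7a2, Ndufa4 and Uqcrfs1. Atp5h (0.94) and Ndufa12 (1.38) remained higher, joined by Ndufv3 (1.24), Ndufaf2 (1.20), Uqcrb (1.00) and Ndufb10 (0.88). Ndufs7 and Atp5d, at 60.6 and 61.1% GC, had -0.56 and -0.41 with the offsets and were not called. Of the mitochondrial genes, 6 were higher with the offsets (mt-Cytb, mt-Nd1, mt-Nd2, mt-Nd4, mt-Nd4l and mt-Nd5), and 7 with offsets and copies together. The sum for mt-Co3 then had 1.17 (SE 0.24, edgeR adjusted p = 0.0543). Also not called with the offsets, mt-Nd6 had 0.70 (edgeR adjusted p = 0.0764), and mt-Atp8, at 31.9% GC, had a fold change of 0.19 instead of 1.75. A GC content of 31.9% was also the minimum over all tested genes, and the offsets were fitted with the mitochondrial genes included. How far the offsets take up differences of these genes themselves was not tested.

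**Figure D5:**
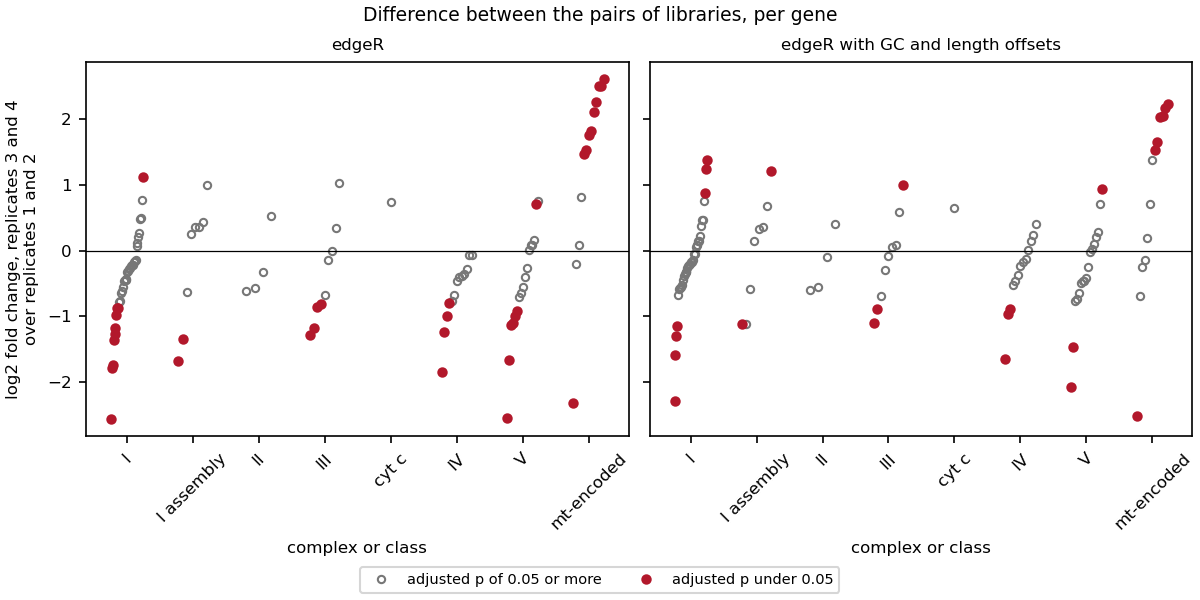
Log2 fold change of replicates 3 and 4 over replicates 1 and 2 for each tested gene, by complex or class, from edgeR without (left) and with (right) GC and length offsets; filled points have an adjusted p under 0.05. Nuclear points lie mostly below 0 on the left, with a median of -0.42, and closer to 0 on the right, with a median of -0.20; the mitochondrial class lies mostly above 0 in both.

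Promoters of nuclear respiratory genes are known for sites of NRF1, of the ETS factor GABP and of YY1. Exact matches to GCATGCGC (the NRF1 core), CCGGAAGT (an ETS site) and AAGATGGC (a YY1 site) were searched on both strands from 250 bases before to 50 bases after the annotated start, in RefSeq promoters of GRCm38.p6. A promoter was listed for 75 of the member genes (80 promoters). The NRF1 core was in 16.2% of them, beside 2.71% of all 32851 promoters of the same length, the YY1 site in 12.5% beside 2.75%, and the ETS site in 6.25% beside 3.89%. At least 1 of the 3 was in 33.8% of member promoters and in 8.83% of all. Of the 22 promoters of genes called lower 36.4% held one, and of the 56 of genes not called 32.1%. Here the genes not called include some that did not pass the count filter, such as Cox7b2 and Cox8b. A match is a description of the letters and not evidence of binding; the NRF1 core overlaps its own reverse complement in some promoters. The promoters of Cycs (NRF1 core), Atp5h (ETS site, reverse strand) and Ndufs7 (YY1 site) show 1 match each in capitals, and that of Atp5e shows none.
Cycs (chr6:50566520-50566819, minus strand): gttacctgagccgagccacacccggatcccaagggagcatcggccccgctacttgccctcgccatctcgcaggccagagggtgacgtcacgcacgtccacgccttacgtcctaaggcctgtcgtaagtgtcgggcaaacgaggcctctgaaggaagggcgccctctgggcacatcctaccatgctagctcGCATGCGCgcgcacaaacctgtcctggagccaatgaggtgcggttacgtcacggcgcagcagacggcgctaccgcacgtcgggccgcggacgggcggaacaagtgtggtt
Atp5h (chr11:115419870-115420169, minus strand): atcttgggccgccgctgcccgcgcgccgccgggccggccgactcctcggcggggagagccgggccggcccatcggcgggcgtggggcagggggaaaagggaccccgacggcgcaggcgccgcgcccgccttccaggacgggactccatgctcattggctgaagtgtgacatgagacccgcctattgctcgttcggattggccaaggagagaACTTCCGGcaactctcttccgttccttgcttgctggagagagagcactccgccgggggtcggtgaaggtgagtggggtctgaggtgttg
Ndufs7 (chr10:80249199-80249498, plus strand): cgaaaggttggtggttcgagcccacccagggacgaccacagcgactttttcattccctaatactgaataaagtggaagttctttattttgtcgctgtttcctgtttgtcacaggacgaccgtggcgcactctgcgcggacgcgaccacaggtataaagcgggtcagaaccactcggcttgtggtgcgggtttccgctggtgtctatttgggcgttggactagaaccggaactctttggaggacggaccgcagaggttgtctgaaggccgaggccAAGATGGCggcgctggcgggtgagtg
Atp5e (chr2:174464052-174464351, minus strand): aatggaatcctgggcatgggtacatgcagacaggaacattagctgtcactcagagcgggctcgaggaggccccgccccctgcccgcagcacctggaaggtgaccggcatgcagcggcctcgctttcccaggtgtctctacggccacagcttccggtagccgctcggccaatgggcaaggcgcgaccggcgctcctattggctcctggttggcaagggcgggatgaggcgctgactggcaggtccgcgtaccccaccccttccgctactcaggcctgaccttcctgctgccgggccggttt

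Cycs, which encodes the electron carrier cytochrome c, had 122 and 105 TPM in replicates 3 and 4, against 70.0 and 69.6 TPM in replicates 1 and 2 (0.73, SE 0.19, edgeR adjusted p = 0.0745). It was called higher in the kallisto-layout counts (0.93, SE 0.19, edgeR adjusted p = 0.0477). It shares sequence with Gm10053, annotated on chromosome 19 as protein coding, 96.6% of whose 31-base words occur in Cycs, and which held 189 and 186 TPM in replicates 3 and 4, against 196 and 207 TPM in replicates 1 and 2. The pseudogene Ndufb4c, a member by its name, had 211 and 205 TPM in replicates 3 and 4, against 137 and 134 TPM in replicates 1 and 2. All of its 31-base words occur in Ndufb4, an accessory subunit of complex I that itself stood at 16.2 and 18.8 TPM in replicates 3 and 4, beside 13.1 and 17.6 TPM in replicates 1 and 2. By counts the split was 1032 and 1110 for Ndufb4c beside 392 and 535 for Ndufb4 in replicates 3 and 4, against 344 and 355 for Ndufb4c beside 161 and 223 for Ndufb4 in replicates 1 and 2. Both are uncertain for this reason. Between the 2 quantifications, 5 of the 103 members with a mean of at least 1 TPM differed at least 2-fold in every library, namely Atp5g2, mt-Atp6, mt-Atp8, mt-Co3 and mt-Nd3.

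In most nuclear members the leading transcript form was protein coding. Of 89 genes, 86 had a protein-coding form as the most abundant one, and in 51 of them the leading form held at least 90% of the TPM. Only 80 of the 89 had more than 1 annotated transcript, and a gene with 1 holds 100% by annotation. These shares are means over the 4 libraries and can hide a difference between the pairs. In 3 genes the leading form was not protein coding, ranked by mean share over the 4 libraries in the RSEM layout. The form Ndufa5-204, annotated as a processed transcript, held 73.1 and 75.2% in replicates 3 and 4, beside 75.0 and 74.5% in replicates 1 and 2, of Ndufa5, an accessory subunit of complex I. Of Ndufs4, a small subunit whose loss causes Leigh syndrome in humans, the form Ndufs4-202, annotated for nonsense-mediated decay, held 45.2 and 50.7% in replicates 3 and 4, beside 45.3 and 47.9% in replicates 1 and 2. The form Atp5f1-203, with the same annotation, held 77.3 and 81.5% of Atp5f1 in replicates 3 and 4, against 37.5 and 40.9% in replicates 1 and 2. In replicates 1 and 2 the protein-coding Atp5f1-201 led with 61.1 and 57.2%, and it held 21.6 and 16.7% in replicates 3 and 4. Atp5f1 encodes subunit b of the peripheral stalk, and its total was 402 and 362 TPM in replicates 3 and 4, against 199.5 and 211 TPM in replicates 1 and 2 (0.75, SE 0.18, edgeR adjusted p = 0.0664). In the kallisto layout the processed transcript Ndufaf4-202 also led its gene, with a mean share of 63.3%, against 19.5% for the protein-coding Ndufaf4-201.

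Of 41 tested assembly factors of complexes I to V outside the Nduf family, 1 was higher and 3 were lower in replicates 3 and 4, where 2.08% of all tested genes were higher and 3.72% lower. Cox20, which helps to insert mt-Co2, had 112 TPM in both replicates 3 and 4, against 55.8 and 54.0 TPM in replicates 1 and 2 (1.04, SE 0.19, edgeR adjusted p = 0.0439). Cox14, which supports synthesis of mt-Co1, had 21.3 and 21.7 TPM in replicates 3 and 4, against 71.6 and 82.7 TPM in replicates 1 and 2 (-1.84, SE 0.17, edgeR adjusted p = 0.0187). Uqcc2, needed for cytochrome b synthesis, and Cox18, a membrane insertase, fell by 1.51 and 0.99. With the GC and length offsets Cox20 and Cox14 kept their calls, while Uqcc2 (-0.81, edgeR adjusted p = 0.104) and Cox18 (-0.89, edgeR adjusted p = 0.0532) did not. Cox17 and Coa5 were the most abundant of this list, at 219 ± 42.0 and 165 ± 30.0 TPM.

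Of 26 tested genes that maintain and express mitochondrial DNA, edgeR called 1, which was lower. Of all tested genes, 3.72% were called lower and 2.08% higher. That gene was Slirp, which with Lrpprc stabilises mitochondrial messages, and it kept its call with the offsets. Slirp had 66.6 and 43.3 TPM in replicates 3 and 4, against 122 and 143 TPM in replicates 1 and 2 (-1.16, SE 0.22, edgeR adjusted p = 0.0454), and Lrpprc had 12.0 and 14.9 TPM in replicates 3 and 4, beside 12.3 and 14.5 TPM in replicates 1 and 2. Tfam, which packages mitochondrial DNA, had 34.8 and 38.2 TPM in replicates 3 and 4, against 20.2 and 19.2 TPM in replicates 1 and 2, but its fold change in counts was -0.22 (SE 0.17), so that the TPM and count scales differed in sign. Among 8 nuclear regulators, Ppargc1a, the coactivator PGC-1alpha, was at 0 TPM in all libraries. Esrra, the estrogen-related receptor alpha, fell by 0.94 (SE 0.18, edgeR adjusted p = 0.0475) but had -0.47 with the offsets (edgeR adjusted p = 0.156). Gabpa and Yy1 had count fold changes of 0.09 and 0.12, but their TPM was higher in replicates 3 and 4 without overlap. Yy1 had 38.5 and 46.5 TPM in replicates 3 and 4, against 15.6 and 19.2 TPM in replicates 1 and 2. Gabpa had 21.4 and 27.2 TPM, against 16.1 and 17.3 TPM. The 13 genes of ubiquinone synthesis had a median fold change of -0.26 and a median level of 13.6 TPM.

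AA467197, the mouse homolog of human C15orf48, whose product is known from human cells to take the place of NDUFA4 in complex IV, had 13.4 and 19.9 TPM in replicates 3 and 4, against 43.1 and 43.0 TPM in replicates 1 and 2 (-1.37, SE 0.25, edgeR adjusted p = 0.0432), and was not called with the offsets (-1.28, edgeR adjusted p = 0.0733). Ndufa4 itself had 119 and 89.5 TPM in replicates 3 and 4, against 206 and 210.1 TPM in replicates 1 and 2 (-1.0, SE 0.20, edgeR adjusted p just under 0.05). Both genes were thus lower in the same libraries. Ndufa4 kept its call with the offsets (-0.88, edgeR adjusted p = 0.0434), but lost it when mitochondrial genes, among others, were left out of the library sizes. Higd1a, a small factor that binds complex IV, fell by 1.31 (SE 0.25, edgeR adjusted p = 0.0448). Ucp2, an inner membrane carrier abundant in macrophages, and the ATP/ADP carrier Slc25a5 had means of 417 and 393 TPM. Nnt, the proton-driven transhydrogenase in which C57BL/6J mice carry a known deletion, had 7.41 TPM in both replicates 3 and 4, beside 6.09 and 7.5 TPM in replicates 1 and 2. Acod1, which makes the complex II inhibitor itaconate, had 603 and 903 TPM in replicates 3 and 4, beside 923 and 1918 TPM in replicates 1 and 2 (-0.87, SE 0.36, edgeR adjusted p = 0.178).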

How the data were processed

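PolyA-plus RNA of 4 macrophage libraries in 1 group was analysed. Per the file headers and the deposited notes, the authors supplied estimated counts and TPM per gene and transcript against mm10 and GENCODE M21: one set has the column layout of RSEM and was made from transcriptome alignments, the other has that of kallisto and was made from reads. Programs, their versions and any use of strand: not given in the sources used here. TPM was deposited per library and was not rescaled here.

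Expected counts as deposited were rounded, and edgeR 4.0.16 (R 4.3.3) was run with TMM scaling, filterByExpr at a minimum count of 10 and the quasi-likelihood test on replicates 3 and 4 over replicates 1 and 2, Benjamini-Hochberg adjusted over 11991 genes at 0.05. SE is the absolute fold change over the root of F. The comparison follows the number of read files and is not a contrast of conditions. Entries that name no gene held 0.043 and 0.042% of counts in replicates 3 and 4, against 0.128 and 0.124% in replicates 1 and 2, and were left out. Intervals and floors cover counting error only.

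Alternatives were DESeq2 1.42.0, other scaling, no filter, kallisto-layout counts, loess offsets for GC and length (degree 2, span 0.3), counts of nuclear copies added to the gene they copy, and leaving out each library. A copy shares at least 90% of its 31-base words with a mitochondrial gene. Isoform pairs used log2(TPM + 1) and an exact two-sided sign-flip test. Scripts used Python 3.11.15 with scipy 1.17.1, numpy 2.4.6, pandas 2.3.3 and matplotlib 3.10.9, and were tested on simulated data.

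Members and gene lists were chosen with earlier results of these data known. Named are the 3 most abundant members per class, all mitochondrial genes, called members (the 12 of largest fold change in a direction with values), isoform pairs, members under 1 TPM, the 3 highest and lowest by CV, members at least 2-fold apart between quantifications, nuclear copies and, per list, the 3 most abundant and those called. Others were named after their values were seen, to complete a count or a range: Ndufv1, Sdhc, Ndufv3, Ndufb10, Atp5c1, Cyc1 by level, Ndufb4, Ndufa5, Ndufs4, Gabpa and Yy1.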

Additional observations from a re-analysis of the deposited data

Results flagged for a closer look

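Of 120 sets of 4 library values examined, 2 had 1 library far from the rest (a gap to the nearest value that fills most of the range, past the critical value of Dixon for 4 samples), where chance gives about 1 in 20. Ndufs8, a core iron-sulfur subunit of complex I, had 80.77 TPM in replicate 2, and between 52.95 and 53.71 TPM in the other libraries (0.973 of the range). The log2 ratio of Atp5g3 over Atp5g1 was 1.47 in replicate 4 and between 1.83 and 1.9 in the other libraries (0.847 of the range).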

How the results depend on the processing

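Members called higher numbered 11 (all genomes), with 17 by DESeq2, 17 with no low-count filter, and 0 to 9 when 1 library was left out; with copies added and 1 library left out they were 0 to 12. Members called lower numbered 26, with 13 under GC and length offsets, 12 with offsets and copies, 0 to 21 when 1 library was left out, and 0, 4 and up to 20 with copies added and 1 library left out. With no low-count filter the calls over all genes rose too. Of 22006 genes then tested, 1213 were higher and 1356 lower, 11.7% in either direction, against 5.8% in the main fit. With replicates 3 or 4 left out 1 library stands alone and is assumed to vary like the others. The fold change of mt-Atp6 was 2.57 in kallisto-layout counts, 2.21 with its copy, 2.11 with both, 1.7 with copy and offsets, 2.12, 2.14 and 2.31 with its copy and 1 library left out, and -0.71 to 0.62 alone with 1 library left out. That of mt-Co2 was -0.26 in kallisto-layout counts, -0.15 with offsets and -0.11 to 0.33 with 1 library left out. That of mt-Co3 was 1.37 with its copy, 1.39 with kallisto-layout counts too, 1.17 with offsets too, and 1.34, 1.36, 1.4 and 1.42 with 1 library left out too; that of mt-Nd3 was -0.25 with offsets. The cause was not tested. The nuclear median fold change was -0.18 with offsets and -0.19 with copies too, counting Ndufb4c among the nuclear genes. The nuclear share of TPM, pseudogenes included, was 0.981% in kallisto-layout TPM and 0.483% of counts. Medians in counts per library size were 24.8 for complex I, 6.15 for its assembly factors, 93.3 for complex II, 37.3 for III, 178 for cytochrome c, 39.7 for IV, 43.6 for V and 472 for mitochondrial genes. In kallisto-layout TPM they were 8.44 for assembly factors, 104 for complex II and 144 for V, and rescaled over nuclear protein-coding genes 11.1 for assembly factors and 137 for complex II. The log2 ratio of Atp5g2 over Atp5g1 was -2.65 in kallisto-layout TPM. Of the other values, 390 for single genes or pairs kept direction and call, 257 lost the call, 11 gained it and 22 turned sign; 196 summary values kept theirs. Copies combined with other settings, and mt-Atp8 left out, were chosen after seeing the data. No paired analysis was possible because the series has 1 group.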
